A study of Mus musculus with 9 samples.

Results

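The genes of the major histocompatibility complex (MHC) class II pathway and their master regulator Ciita were followed through 9 RNA-Seq libraries of a clonally tracked mouse leukemia. They were the 7 genes Ciita, H2-Aa, H2-Ab1, H2-Eb1, Cd74, H2-DMa and H2-DMb1, chosen by name, and all 7 were found among the 55401 genes of the tables. The cells were H9M, an acute myeloid leukemia made from lineage-negative bone marrow of C57BL/6-Ly5.1 mice with retroviral Hoxa9 and Meis1. All groups carried FGB-D lentiviral color-coding vectors and a further shared modification that is not reported here, and all were grown in lethally irradiated C57BL6/J recipients that also received helper bone marrow. Sorted splenocytes (CD45.1+, EGFRt bright, cKit+, CD11b dim or negative) of single color codes were sequenced, with 3 libraries per group. Pre-malignant cells came from a single recipient, mouse #15, sacrificed 4 weeks after transplantation, which gave 1 library for each of 33BC-D, 38BC-D and 43BC-D. These clones reappeared as de novo expanded cells in leukemic recipients, with 38BC-D taken from mouse #13, 43BC-D from mouse #14 and 33BC-D from mouse #17. Stably expanded cells were all of clone 34BC-D, taken from those same leukemic recipients, and thus stand for 1 clone. Because all pre-malignant libraries came from 1 mouse, clone group, mouse and time of sacrifice cannot be told apart in comparisons with them. The p-values measure the spread between these libraries. That spread is between clones of 1 mouse in pre-malignant cells and between clones and mice together in de novo expanded cells. In stably expanded cells it is between mice that carried 1 clone.

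MHC class II molecules are pairs of an α and a β chain that present peptides from the endocytic route to CD4 T cells. They are made by B cells, dendritic cells and activated macrophages, and in other cells they appear after exposure to interferon gamma. The non-DNA-binding coactivator CIITA is recruited to the SXY module of their promoters by the RFX, CREB and NF-Y factors and sets whether the genes are transcribed. The invariant chain CD74 occupies the groove until endosomal proteases cut it, and the DM heterodimer then exchanges the remaining fragment for peptide. In acute myeloid leukemia the pathway is known for its loss at relapse after allogeneic transplantation.

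On GRCm38.p6, the build of the files, 5 of the 7 genes lie within the class II region of chromosome 17. These are H2-DMa (34119541 to 34139101, plus strand), H2-DMb1 (34153072 to 34160230, plus strand), H2-Ab1 (34257689 to 34269419, plus strand), H2-Aa (34282744 to 34287823, minus strand) and H2-Eb1 (34305867 to 34316674, plus strand). Ciita lies on chromosome 16 (10480059 to 10528418, plus strand). RefSeq promoter windows of the same build, 300 bases each from 250 before to 50 after a start site, were matched by symbol for 4 of the 7 genes, namely H2-Aa, H2-Eb1, H2-DMb1 and H2-DMa. The Y box core GATTGG, the letters bound by NF-Y, was searched on both strands and was in a window of 4 of 4 of these genes and of 4 of 4 further class II locus genes, against 16.1% of all 32851 windows. The narrow X box core TAGNNACAG was in none of the 8 genes and in 4.15% of all windows, and the interferon gamma activated site motif TTCNNNGAA was in 1 of them, H2-DMb2, and in 8.3% of all windows. A wider X box core, AACNNNTGA, was chosen after the promoters had been read, so that its matches in H2-Eb1, H2-DMb1, H2-DMb2 and H2-Ob only describe these promoters. It was in 11.9% of all windows, and 1.81% held it together with GATTGG. No motif overlapped another in the sequences shown, and a match is a description of letters and not a bound site. The 150 bases before the start site are shown for the genes whose Y box lies there, since they carry the letters shared by genes that differed in level, with GATTGG (or CCAATC on the other strand) and the wider X box core in capitals. H2-Aa is at chr17:34287824-34287973 (minus strand), H2-Eb1 at chr17:34305717-34305866 (plus strand) and H2-DMb1 at chr17:34153041-34153190 (plus strand), each written 5′ to 3′.
H2-Aa: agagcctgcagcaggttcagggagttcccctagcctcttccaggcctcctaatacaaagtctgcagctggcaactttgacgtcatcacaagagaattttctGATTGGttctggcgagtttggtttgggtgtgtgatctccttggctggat
H2-Eb1: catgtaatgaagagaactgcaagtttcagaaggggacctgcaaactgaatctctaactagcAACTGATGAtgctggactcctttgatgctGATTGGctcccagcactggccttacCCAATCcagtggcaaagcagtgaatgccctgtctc
H2-DMb1: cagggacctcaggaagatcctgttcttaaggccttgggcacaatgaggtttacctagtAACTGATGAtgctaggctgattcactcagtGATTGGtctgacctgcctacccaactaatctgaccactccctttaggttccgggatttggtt
The first base of GATTGG lay 49 bases before the start site in H2-Aa, 60 in H2-Eb1 and 62 in H2-DMb1. From the first base of the wider X box core to that of GATTGG there were 29 bases in H2-Eb1, 30 in H2-DMb1, 30 in H2-DMb2 and 27 in H2-Ob. H2-DMa, with 2 windows, had its match 199 bases before the second start site.

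Reads on genes numbered 10379739 to 15551196 per library, and a count of 0 allows up to 3 reads at any of these depths. Library numbers 1 to 3 within a group follow the columns of the tables and name neither a clone nor a mouse. The sorted cells carried Hoxa9 at 315 to 687 CPM, that is counts scaled to 1000000 reads on genes, Meis1 at 535 to 1099 CPM and Kit at 142 to 287 CPM. De novo expanded library 3 stood apart, with Mpo, a promyelocyte enzyme, at 15796 CPM against 1637 and 2658 CPM in the other libraries of its group. Fold changes of the 7 genes that involve the de novo expanded group are therefore also given without it.

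Per deposited gene length, the accessory genes were the most abundant of the 7 and Ciita was the least. This length counts all annotated exon bases of a gene and not those of 1 transcript. The order of the genes and the ratios between them therefore depend on the annotation. Over the 9 libraries, H2-DMa had 13.4 ± 2.21 RPKM (CPM per kilobase of that length, mean ± SD, n = 9), H2-DMb1 7.39 ± 1.05, Cd74 6.31 ± 3.23, H2-Ab1 5.66 ± 1.91, H2-Eb1 0.984 ± 0.690, H2-Aa 0.695 ± 0.400 and Ciita 0.125 ± 0.139 RPKM. H2-DMa was above each of the other 6 genes in 9 of 9 libraries, and Ciita was below each of them in 9 of 9. The neighbours in the middle of that order did not separate, because Cd74 was above H2-DMb1 in 3 of 9 libraries and above H2-Ab1 in 6 of 9. H2-Eb1 was above H2-Aa in 7 of 9.

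The spread across libraries ran the other way. The highest CPM was 1.47 times the lowest for H2-DMb1, 1.64 times for H2-DMa and 2.49 times for H2-Ab1. For H2-Aa this ratio was 5.82, for Cd74 5.90, for H2-Eb1 17.7 and for Ciita 35.4. The lowest counts were 2 reads for Ciita and 4 for H2-Eb1, with 95% Poisson intervals of 0.242 to 7.22 and 1.09 to 10.2 reads. Counting error widens such ratios at low counts, and its share in this order was not tested. The ratio of H2-DMa to H2-DMb1, the α and β chain of one heterodimer, stayed between 1.51 and 2.09 in RPKM. The ratio of H2-Ab1 to H2-Aa, which encode the β and α chain of the I-A molecule, ranged from 3.54 to 29.7. It was 14.8, 29.7 and 19.2 in de novo expanded cells, 3.54, 4.20 and 9.58 in pre-malignant cells and 5.83, 7.01 and 8.18 in stably expanded cells. All 3 de novo expanded libraries were above the other 6, and no test was run on this ratio, which was singled out after its values were seen.

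**Figure D1:**
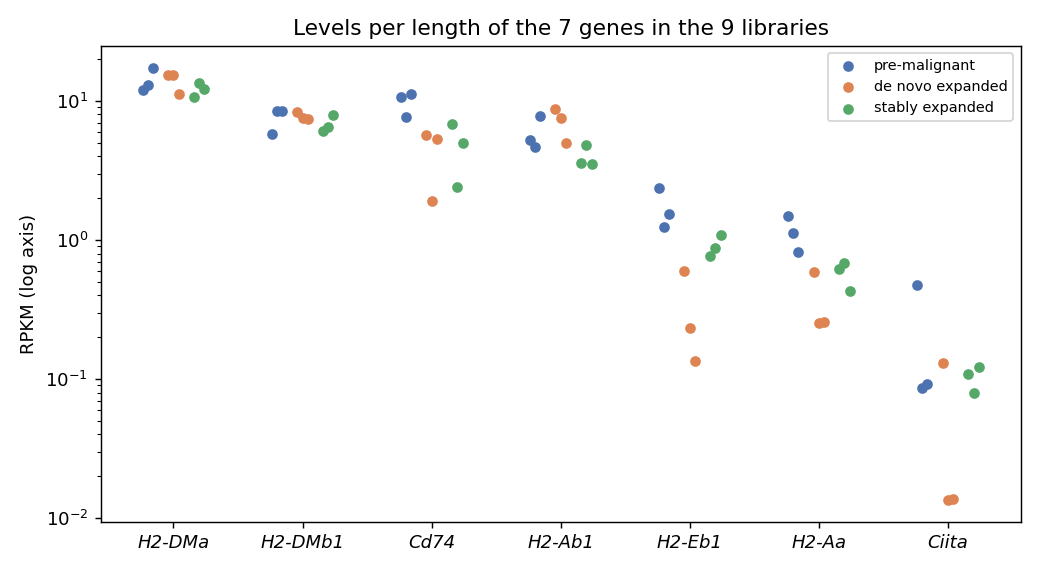
Level of each of the 7 genes in each of the 9 libraries in RPKM on a log axis, with genes ordered by their mean and groups marked by color. H2-DMa points lie close together at the top, whereas Ciita, at the bottom, and H2-Eb1 spread the most.

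Ciita, the coactivator, had 60, 12 and 13 reads in pre-malignant cells, 15, 2 and 2 in de novo expanded cells and 16, 11 and 12 in stably expanded cells. These counts are 4.55, 0.822 and 0.878 CPM, then 1.25, 0.129 and 0.131 CPM, and then 1.04, 0.754 and 1.16 CPM. Pre-malignant library 1 was high, de novo expanded libraries 2 and 3 were low, and the other 6 lay close to each other. The 95% Poisson interval of 2 reads runs from 0.242 to 7.22 reads and that of 12 reads from 6.20 to 21.0 reads, which covers counting error alone. The log2 fold change of de novo expanded over pre-malignant was -2.05 ± 0.98 (SE) with an adjusted p of 0.470 in limma. Stably expanded over pre-malignant gave -0.59, with an adjusted p of 0.613, and without pre-malignant library 1 it turned to 0.19. The groups overlapped in every comparison. Without that library, the mean of Ciita in the comparison with de novo expanded cells fell under the limit of 10 normalized counts, so that no value was computed.

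H2-Eb1, the β chain of I-E, had the lowest mean log2 fold change of the 7 genes in de novo expanded cells. It was at 4.63, 2.40 and 2.97 CPM in pre-malignant cells, 1.17, 0.450 and 0.261 CPM in de novo expanded cells and 1.50, 1.71 and 2.12 CPM in stably expanded cells. These levels rest on 61, 35 and 44 reads, then on 14, 7 and 4, and then on 23, 25 and 22. None of the 3 groups overlapped, with pre-malignant the highest and de novo expanded the lowest. The fold change of de novo expanded over pre-malignant was -2.44 ± 0.57 (log2, SE), with a 95% interval from -3.78 to -1.10, an unadjusted p of 0.00324 and an adjusted p of 0.360 in limma. DESeq2 on the recovered reads gave -2.43 and an adjusted p of 0.0378 and thus called it. Stably expanded over de novo expanded was 1.61 ± 0.52 (log2, SE; adjusted p = 0.891 in limma). The files also list H2-Ea-ps, the pseudogene of the I-E α chain in this strain, at 0 to 2 reads per library, and H2-Eb2 at 0 to 12 reads.

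H2-Aa, the α chain of I-A, followed the same order of group means. Its levels were 5.62, 4.24 and 3.11 CPM in pre-malignant cells, 2.25, 0.965 and 0.980 CPM in de novo expanded cells and 2.35, 2.60 and 1.64 CPM in stably expanded cells. The pre-malignant libraries lay above the other 6, and the leukemic groups overlapped with each other. In limma the log2 fold change over pre-malignant was -1.63 ± 0.44 (SE) in de novo expanded cells (adjusted p = 0.372) and -0.93 ± 0.36 in stably expanded cells (adjusted p = 0.134).

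H2-Ab1, the β chain that pairs with H2-Aa, differed from its partner. It was at 13.4, 12.0 and 20.1 CPM in pre-malignant cells, 22.5, 19.4 and 12.7 CPM in de novo expanded cells and 9.27, 12.3 and 9.06 CPM in stably expanded cells. The highest libraries were de novo expanded 1 and pre-malignant 3, and every stably expanded library lay below every de novo expanded one. Stably over de novo expanded was -0.80 ± 0.25 (log2, SE; adjusted p = 0.891 in limma). Without de novo expanded library 3 the value was -1.03 with an adjusted p of 0.0248, which passed the test. De novo expanded over pre-malignant was 0.27, with a 95% interval from -0.38 to 0.92.

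Cd74 (chromosome 18, 60803848 to 60812652, plus strand) encodes the invariant chain, which is made together with the class II chains in antigen-presenting cells. It was at 17.8, 12.9 and 19.0 CPM in pre-malignant cells, 9.60, 3.22 and 8.95 CPM in de novo expanded cells and 11.5, 4.04 and 8.38 CPM in stably expanded cells. The 3 pre-malignant libraries were the highest of the 9, while the leukemic groups covered the same range. In limma the log2 fold change was -1.30 ± 0.43 (SE) in de novo expanded cells, with an adjusted p of 0.399. In stably expanded cells it was -1.15 ± 0.35 (SE), with an adjusted p of 0.0697. The latter passed the test in DESeq2 (adjusted p = 0.0177), with no filter on low values (adjusted p = 0.0161) and without stably expanded library 1 (log2 fold change -1.48, adjusted p = 0.0387). It did not pass in edgeR, with 1 fit of all 9 libraries or in any other alternative. The adjusted p in limma reached 0.185 when a library was left out.

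H2-DMa and H2-DMb1, the peptide exchange factor, were the steadiest of the 7. H2-DMa was at 41.6, 44.9 and 60.0 CPM in pre-malignant cells, 52.7, 52.9 and 38.9 CPM in de novo expanded cells and 36.5, 46.1 and 42.1 CPM in stably expanded cells. H2-DMb1 was at 9.71, 14.3 and 14.3 CPM, then 13.9, 12.6 and 12.5 CPM, and then 10.2, 10.9 and 13.4 CPM, in the same order. The groups of both genes overlapped in every comparison. The 95% intervals of their log2 fold changes in the 3 comparisons ran from -0.57 to 0.43 for H2-DMa and from -0.62 to 0.54 for H2-DMb1.

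Reads of some genes could be shared with neighbours. Whether the counting used strand is not given in the sources used here. H2-DMa shares 360 of its 3448 exon bases with Brd2 on the other strand, which had 52822 reads over the 9 libraries against 5812 for H2-DMa. Ciita shares 329 of 9535 exon bases with Dexi on the other strand, with 461 reads against 143. H2-DMb1 and H2-DMb2, and H2-Eb1 and H2-Eb2, are paralogs, so that their counts are uncertain where reads match both copies.

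**Figure D2:**
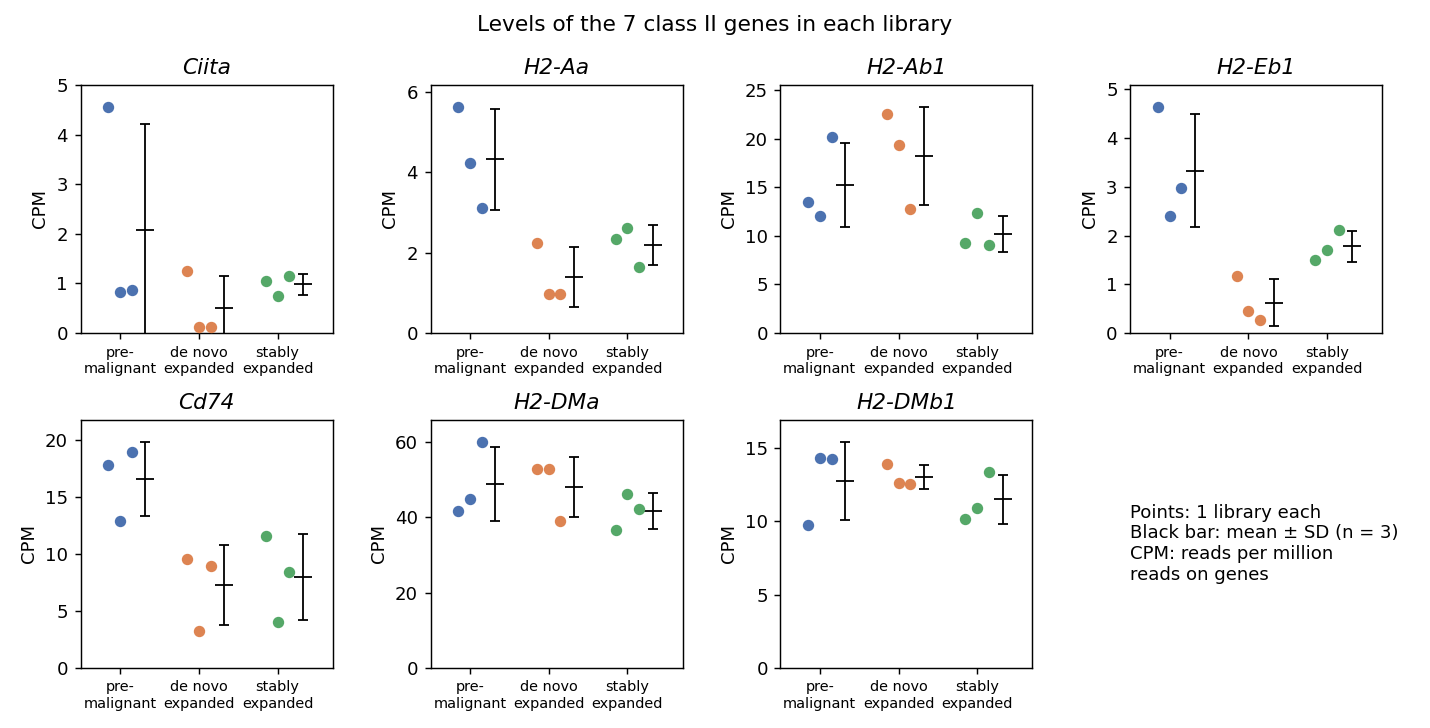
Level of each of the 7 genes in CPM (linear axes from 0), with 1 point per library and the mean ± SD of each group (n = 3). H2-Aa, H2-Eb1 and Cd74 were highest in the 3 pre-malignant libraries, whereas H2-DMa and H2-DMb1 overlapped across groups.

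The first comparison asked how clones changed between the pre-malignant state and de novo expansion. None of the 7 genes passed the test, which required an adjusted p under 0.05 and at least 2-fold change in limma, as for 0% of the 14195 genes tested. Cd74, H2-Aa and H2-Eb1 had an unadjusted p under 0.05 with lower levels, 3 of 7 genes against 5.26% of all genes. The same 3 genes had groups that did not overlap, against 8.5% of all genes in this direction. The median log2 fold change of the 7 genes was -1.30, against 0.0079 over all genes. Without de novo expanded library 3, 214 of all genes passed, and none of the 7 did. The adjusted p was then 0.0557 for Cd74 (log2 fold change -1.54), 0.0588 for H2-Eb1 (-2.02) and 0.102 for H2-Aa (-1.46). Without that library Ciita was at -1.61 (adjusted p = 0.348), H2-Ab1 at 0.50 (adjusted p = 0.247), H2-DMa at 0.14 (adjusted p = 0.663) and H2-DMb1 at 0.083 (adjusted p = 0.873). DESeq2 called 1 of the 7, H2-Eb1, and 64 of all genes, whereas edgeR called 0 of the 7 and 0 of all genes.

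The second comparison set the stably expanded clone against the pre-malignant clones. All 7 log2 fold changes were below 0, as for 49.5% of all genes, with a median of -0.59 against 0.0042 over all genes. None of the 7 passed the test in limma, against 2.75% of 13968 genes (384 genes), or in edgeR, which called 391 of all genes. DESeq2 called 1 of the 7, Cd74, and 528 of all genes. Cd74, H2-Aa and H2-Ab1 had an unadjusted p under 0.05, 3 of 7 against 12.3% of all genes in this direction. Cd74, H2-Aa and H2-Eb1 had groups that did not overlap, against 14.6% of all genes. The comparison shares its pre-malignant libraries with the first, so that the lower values of Cd74, H2-Aa and H2-Eb1 in both are not a repeat on separate samples. With 1 fit of all 9 libraries, 9 genes passed in place of 384, and none of the 7 was among them.

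The third comparison set the leukemic groups against each other. None of the 7 genes passed in limma, edgeR or DESeq2, against 0.00727% of 13758 genes in limma, 1 gene in edgeR and 32 genes in DESeq2. H2-Ab1 (lower, as for 2.11% of all genes) and H2-Eb1 (higher, as for 2.72%) had an unadjusted p under 0.05 in limma. Both also had groups that did not overlap, against 4.95% of all genes lower and 4.66% higher. The median of the 7 was 0.17, against -0.0021 over all genes. Without de novo expanded library 3, H2-Ab1 was the 1 of the 7 that passed, among 508 of all genes. The log2 fold changes were then 1.20 for H2-Eb1 (adjusted p = 0.274 in limma), 1.02 for Ciita (adjusted p = 0.573), 0.54 for H2-Aa (adjusted p = 0.630), 0.41 for Cd74 (adjusted p = 0.750), -0.34 for H2-DMa (adjusted p = 0.211) and -0.20 for H2-DMb1 (adjusted p = 0.692).

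**Figure D3:**
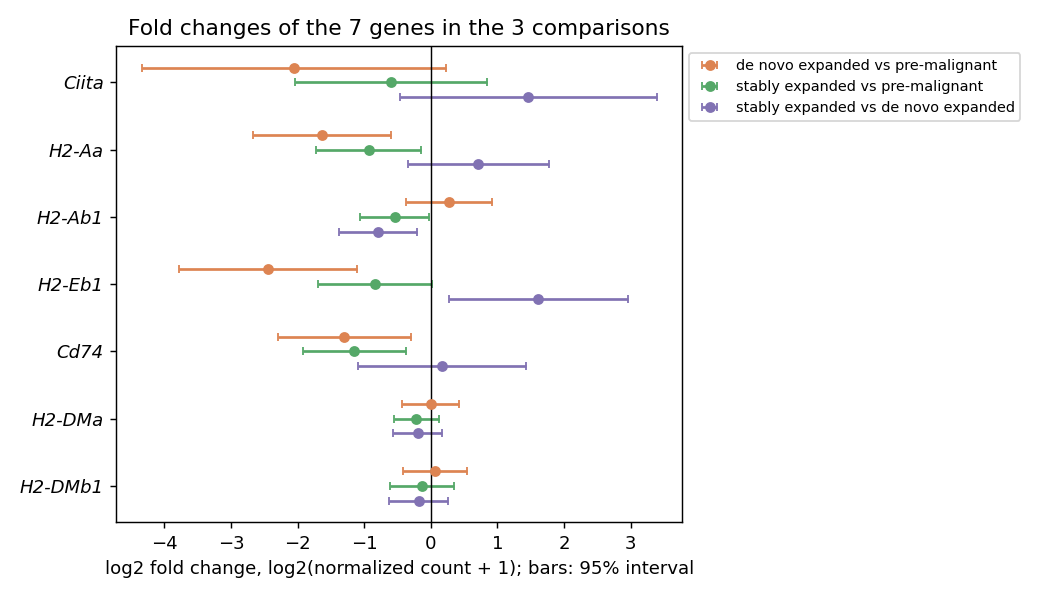
Log2 fold change of each of the 7 genes (horizontal axis, difference of means of log2(normalized count + 1)) with its 95% interval in the 3 comparisons, marked by color. H2-DMa and H2-DMb1 lie close to 0 in all 3, and H2-Eb1 has the lowest value, -2.44, in de novo expanded over pre-malignant.

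In bulk libraries, fewer cells that express a gene and less RNA per cell cannot be told apart. Of the other class II locus genes, H2-DMb2, H2-Oa and H2-Ob were abundant enough to test, and 0 of 3 passed in any comparison in limma, DESeq2 or edgeR, with 1 of them, H2-Ob, at an unadjusted p under 0.05 in either comparison of stably expanded cells. H2-Ob, the β chain of the DM inhibitor DO, was at 15.4, 13.8 and 16.9 CPM in pre-malignant cells, 19.9, 28.1 and 9.93 CPM in de novo expanded cells and 6.33, 12.7 and 8.96 CPM in stably expanded cells. The stably expanded libraries lay below all pre-malignant ones, with a log2 fold change of -0.76 ± 0.25 (SE; adjusted p = 0.0817 in limma). H2-Oa, its α chain, gave 0.24 in the same comparison, and H2-DMb2 gave -0.15.

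The factors that assemble on class II promoters were present in all libraries and none of the 10 passed the test in any comparison, whether by limma, DESeq2 or edgeR. At an unadjusted p under 0.05 in limma, 4 were lower and 1 was higher in de novo expanded over pre-malignant cells, against 5.26% and 5.99% of all genes. In stably expanded over pre-malignant cells 2 of the 10 were lower and 1 was higher, near the 12.3% and 13.2% of all genes, and 0 passed that limit between the leukemic groups. Crebbp, a histone acetyltransferase that CIITA recruits, was -0.36 ± 0.08 (log2, SE) in stably expanded over pre-malignant cells, with an adjusted p of 0.0299 in limma but under 2-fold change. Nfyb, a subunit of the Y box factor, had the highest value of the list in both comparisons with pre-malignant cells, 0.44 in de novo expanded (adjusted p = 0.384) and 0.43 in stably expanded cells (adjusted p = 0.0637). Rfxank, a subunit of the X box factor, had the lowest value in de novo expanded cells, -0.53 (adjusted p = 0.435). The 10 genes summed to 1135 to 1176 CPM in pre-malignant, 939 to 1079 CPM in de novo expanded and 1018 to 1047 CPM in stably expanded libraries.

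Of the 16 regulators of Ciita in the list, 14 were tested against pre-malignant cells, and 4 fell in stably expanded cells, against 1.55% of all genes. No regulator passed in the other comparisons by limma, DESeq2 or edgeR, with 5 of 14 lower and 1 higher at an unadjusted p under 0.05 in de novo expanded cells (5.26% and 5.99% of all genes) and 1 of 13 lower between the leukemic groups (2.11% of all genes). Irf8, a myeloid and B cell interferon regulatory factor, was at 308, 441 and 556 CPM in pre-malignant cells, 391, 432 and 63.2 CPM in de novo expanded cells and 122, 259 and 144 CPM in stably expanded cells. It was low in all 3 stably expanded libraries and in de novo expanded library 3, and fell by 1.35 ± 0.25 (log2, SE; adjusted p = 0.0126 in limma) in stably expanded cells. Socs1, an inhibitor of interferon signaling, fell by 1.04 (adjusted p = 0.0479), a call that 11 of 14 alternatives ended, leaving out any 1 of the 6 libraries among them. The B cell factors Pax5 and Ebf1, which also stand in the B cell list, fell by 3.04 (adjusted p = 0.0141) and 2.89 (adjusted p = 0.0206). All 4 calls ended with 1 fit of all 9 libraries, with adjusted p of 0.276, 0.142, 0.0768 and 0.0768 for Irf8, Socs1, Pax5 and Ebf1. Irf8 was also not called without pre-malignant library 2, and Pax5 and Ebf1 were not called without pre-malignant library 1 or 2.

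Genes of the interferon gamma route to Ciita had values in both directions. Irf1, which binds the Ciita promoter after interferon gamma, was at 96.3, 80.8 and 84.2 CPM in pre-malignant cells, 56.5, 50.4 and 56.3 CPM in de novo expanded cells and 54.9, 51.9 and 55.4 CPM in stably expanded cells. The 3 pre-malignant libraries stood clear of the other 6. Its log2 fold change over pre-malignant was -0.66 ± 0.12 (SE) in de novo expanded cells (adjusted p = 0.320) and -0.68 ± 0.11 in stably expanded cells (adjusted p = 0.00837 in limma, under 2-fold change). Ifngr1, a subunit of the interferon gamma receptor, was 0.70 ± 0.12 in stably expanded over pre-malignant cells (adjusted p = 0.00864, under 2-fold change).

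Genes of antigen processing and class II turnover gave no call by limma, DESeq2 or edgeR, with 10 tested in de novo expanded over pre-malignant cells (0 at an unadjusted p under 0.05) and 9 when stably expanded cells were compared with them (2 higher and 1 lower at an unadjusted p under 0.05, against 13.2% and 12.3% of all genes). Ctss, the protease that completes the cleavage of CD74, was -0.73 ± 0.23 (log2, SE; adjusted p = 0.0796 in limma) in stably expanded over pre-malignant cells, and Ctsb was 0.61 ± 0.18 (adjusted p = 0.0585). March1, a ubiquitin ligase that removes class II from the surface, had the lowest value in de novo expanded cells, -1.02 (adjusted p = 0.514). The costimulatory genes gave no call by these tools either, with 1 of 3 higher and 1 lower at an unadjusted p under 0.05 in stably expanded over pre-malignant cells, and Cd40, Cd83 and Pdcd1lg2 were too low to test. Cd80 had the highest value of that list, 1.86 ± 0.64 in stably expanded over pre-malignant cells (adjusted p = 0.0984).

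Class I genes served as a comparison under another coactivator. Nlrc5, the class I counterpart of Ciita, was at 131, 121 and 126 CPM in pre-malignant cells, 111, 96.9 and 34.2 CPM in de novo expanded cells and 51.6, 45.2 and 51.4 CPM in stably expanded cells. Stably expanded libraries were all low, and among the de novo expanded libraries number 3 was the low one. It fell by 1.35 ± 0.11 (log2, SE; adjusted p = 5.89e-04 in limma) in stably expanded cells, a call that was kept in 13 of 14 alternatives and ended with 1 fit of all 9 libraries (adjusted p = 0.105). The class I heavy chains H2-K1 and H2-D1 were both at -0.33 in that comparison (adjusted p = 0.0725 and 0.0974), and B2m, their light chain, was at -0.06. Nlrc5 was the single call among the 10 genes of the list, against 1.55% of all genes that passed as lower in that comparison.

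**Figure D4:**
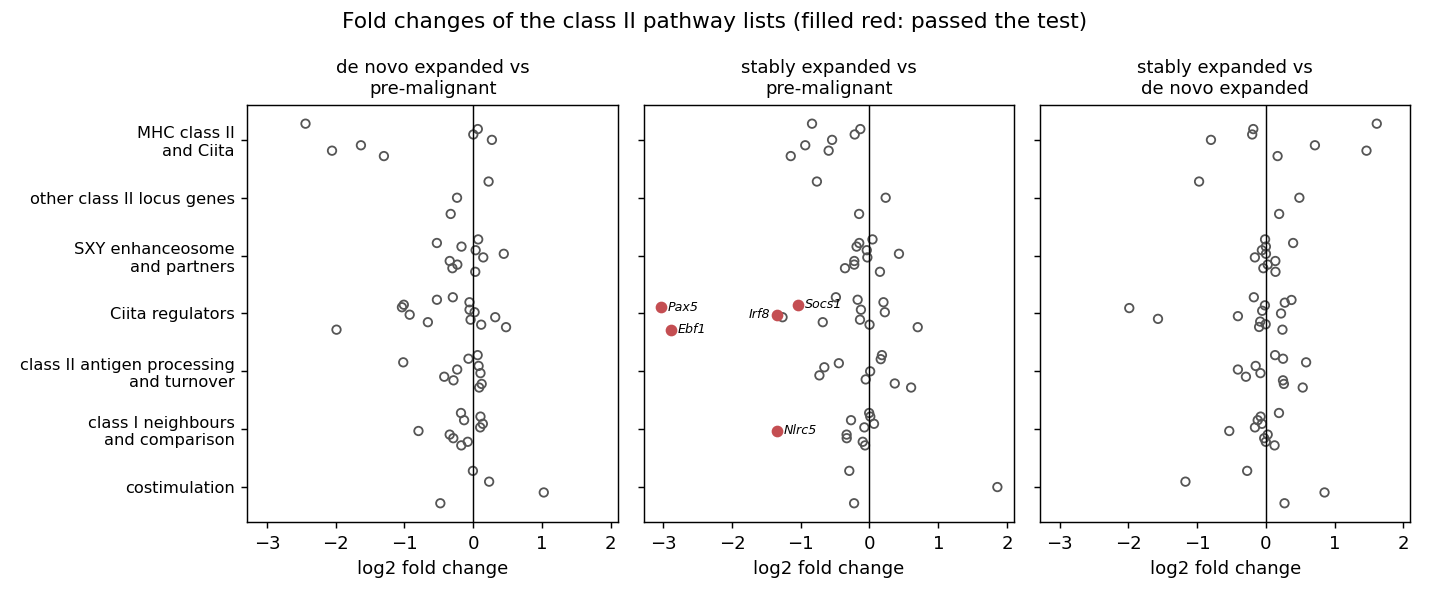
Log2 fold change of each tested gene of 7 lists around the class II pathway in the 3 comparisons, with 1 circle per gene. Filled red circles passed the test, and these are Irf8, Socs1, Pax5, Ebf1 and Nlrc5 in stably expanded over pre-malignant cells.

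Markers of cells that normally carry class II differed widely in level in these sorted cells, from Clec9a at 0 to 8 reads per library to Cd37 at 1169 to 2484 reads. Of the 14 B cell genes, 13 were tested in de novo expanded cells, where 11 had a log2 fold change below 0, 3 had a lower level at an unadjusted p under 0.05 (against 5.26% of all genes) and 0 passed in limma, DESeq2 or edgeR. Of 12 tested in stably expanded cells, 10 were below 0, against 49.5% of all genes. At an unadjusted p under 0.05 in limma, 8 were lower and 1 was higher, against 12.3% and 13.2% of all genes. The test was passed by 4 with lower levels, namely Ebf1, Pax5, Ms4a1 and Ighd, against 1.55% of all genes. Cd79b, a chain of the B cell receptor, went the other way, with 91, 147 and 69 reads in pre-malignant cells, 75, 74 and 141 in de novo expanded cells and 224, 142 and 185 in stably expanded cells. Its log2 fold change in stably expanded over pre-malignant cells was 0.99 ± 0.32 (SE; adjusted p = 0.0796 in limma). Ms4a1, which encodes CD20, had 27, 34 and 42 reads in pre-malignant cells, 12, 4 and 8 in de novo expanded cells and 8, 3 and 7 in stably expanded cells. Every pre-malignant library was above the other 6, as for Cd74. The whole list summed to 140 to 181 CPM, 123 to 187 CPM and 139 to 174 CPM in the 3 groups, of which Cd37 alone held 72.5% to 90.0%. In a sum without Cd37, chosen after the data were seen, the 13 other genes reached 29.5 to 49.9 CPM in pre-malignant, 12.8 to 25.5 CPM in de novo expanded and 18.4 to 28.7 CPM in stably expanded libraries, so that pre-malignant libraries lay above the rest, the lowest of them narrowly. In stably expanded cells Cd79b made up 14.6, 9.73 and 17.8 CPM of this sum. None of the defining genes was at 0 in every library. The part of these cells in the lower levels of Cd74, H2-Aa and H2-Eb1 was not tested.

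The sums of the other marker lists mostly follow their most abundant genes and hide the low ones. Some low genes of these lists also had their highest group mean in pre-malignant cells. Among them were C1qb, Spic and Siglec1 (macrophage), Cd3e and Ncr1 (T and NK cell) and Clec9a (dendritic cell). Others, such as Ccr7, Batf3 and Cd3g, had it in de novo expanded cells. Dendritic cell genes summed to 90.4 to 117 CPM in pre-malignant, 77.8 to 363 CPM in de novo expanded and 41.7 to 111 CPM in stably expanded libraries. Flt3 alone held most of each sum, at 81.7 to 109 CPM, 73.3 to 296 CPM and 39.9 to 100 CPM in the 3 groups. The high sums were those of de novo expanded libraries 1 and 2 and came with Flt3 at 222 and 296 CPM and Clec10a at 58.3 and 60.3 CPM. The defining genes Zbtb46, Xcr1 and Clec9a had at most 10 reads in any library. H2-Aa, H2-Eb1 and Cd74 were not high in these libraries, whereas H2-Ab1 was at 22.5 and 19.4 CPM. Pre-malignant library 3 had H2-Ab1 at 20.1 CPM with Flt3 at 81.7 CPM and Clec10a at 3.38 CPM. Macrophage genes summed to 285 to 384 CPM, 224 to 332 CPM and 269 to 349 CPM in the 3 groups, with C1qa, C1qb and C1qc at 0 to 13 reads per library. Of 5 macrophage genes tested, Csf1r fell in stably expanded cells, by 1.71 (log2; adjusted p = 0.00412 in limma). Of 8 monocyte genes, Klf4, Cx3cr1 and Ms4a6c fell there, by 1.93 (adjusted p = 0.0136), 1.45 (adjusted p = 0.0305) and 1.18 (adjusted p = 0.0141). Of all genes, 1.55% passed as lower in this comparison. At an unadjusted p under 0.05 in limma, 2 of the 5 macrophage and 6 of the 8 monocyte genes were lower, against 12.3% of all genes. In each of these lists 1 gene was higher at that limit, against 13.2% of all genes. The monocyte list summed to 1216 to 1749 CPM, 1018 to 1890 CPM and 1026 to 1474 CPM in the 3 groups. T and NK cell genes summed to 4.84 to 74.3 CPM over the 9 libraries, and Nkg7 rose in stably expanded cells, the direction of 1.2% of all genes. The highest sum, in de novo expanded library 3, was mostly Nkg7 at 70.7 CPM. All other genes of this list, the T cell receptor genes among them, had at most 24 reads in any library. Erythroid genes summed to 24.6 to 55.8 CPM in pre-malignant, 3.33 to 20.3 CPM in de novo expanded and 4.82 to 32.5 CPM in stably expanded cells. Of the leukemic libraries, only stably expanded library 2 reached the pre-malignant range. Of 7 erythroid genes tested against pre-malignant cells, 4 were lower at an unadjusted p under 0.05 in either leukemic group, against 5.26% of all genes in de novo and 12.3% in stably expanded cells, and 0 passed in limma or edgeR. DESeq2 called Alas2, the erythroid heme synthesis enzyme, in both comparisons and Slc4a1, a red cell anion exchanger, in stably expanded cells. The calls of Csf1r, Klf4, Cx3cr1, Ms4a6c and Nkg7, like those of Ms4a1 and Ighd, ended with 1 fit of all 9 libraries. That of Csf1r was kept in the 13 other alternatives of 14. Klf4 was called in 11 of 14 and not without pre-malignant library 2 or 3, and Ms4a6c in 11 of 14 and not without pre-malignant library 3 or stably expanded library 1. Cx3cr1 was called in 9 of 14, and leaving out pre-malignant library 2 or 3 or stably expanded library 2 or 3 ended its call. Nkg7 (8 of 14) and Ighd (7 of 13) were not called without any 1 of the pre-malignant libraries or without stably expanded library 1 or 3. Ms4a1 (6 of 13) was not called with quantile normalization, without any 1 of the pre-malignant libraries or without stably expanded library 1 or 2. The part of these markers in the class II values was not tested.

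**Figure D5:**
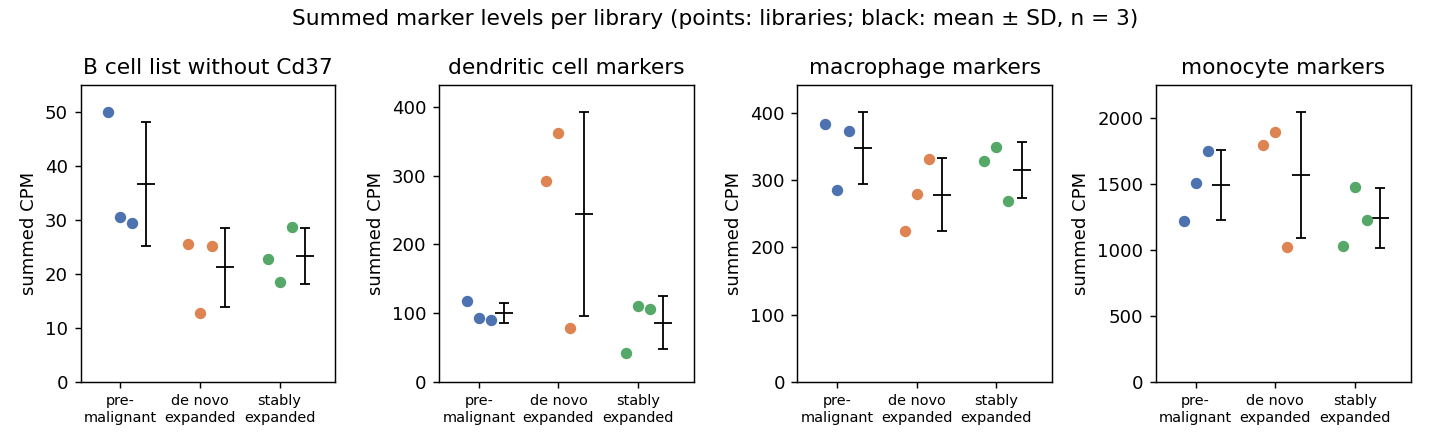
Summed CPM of B cell genes without Cd37 and of dendritic cell, macrophage and monocyte genes (linear axes from 0), with 1 point per library and the mean ± SD of each group (n = 3). The B cell sum is highest in the 3 pre-malignant libraries, and the dendritic cell sum, most of it Flt3, is highest in de novo expanded libraries 1 and 2.

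The genes whose pattern lay nearest to Cd74 were sought among 13082 genes with a mean of at least 1 CPM, by the root mean square difference of mean-centred log2(CPM + 1) over the 9 libraries. They were Gm11769 (0.30), Ms4a1 (0.37), Cd22 (0.38), Rnu12 (0.39) and Leng9 (0.40), so that B cell genes took 2 of the 5 places. Of the other class II genes, H2-Aa ranked 157, H2-Eb1 ranked 246 and Ciita ranked 608, whereas H2-DMb1, H2-DMa and H2-Ab1 ranked 4442, 5960 and 9694. Nearest to Ciita were Gm25794 (0.31), Spata2l (0.31), Gm23624 (0.32), 4931431C16Rik (0.34) and Gm25256 (0.35), with H2-Eb1 at rank 6, H2-Aa at rank 14 and Cd74 at rank 2045, and with H2-DMa, H2-DMb1 and H2-Ab1 at ranks 6849, 8666 and 10767. With a limit of 5 CPM, 9769 genes were ranked and the nearest to Cd74 were Leng9, Irgm2, Gm24336, Gbp2 and Gm24447, sharing 1 gene with the first 5. That limit removed Gm11769, Ms4a1, Cd22 and Rnu12 before ranking, and also H2-Aa, H2-Eb1 and Ciita. The change of neighbours thus follows from the limit itself and does not test the first ranking. These distances are a description over 9 libraries that share depth and sort, and low counts add noise to those of Ciita.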

How the data were processed

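RNA-Seq (stranded total-RNA SMARTer kit) was analysed in 9 libraries, 3 per group. The authors processed reads with nf-core/rnaseq, including Trim Galore 0.6.4, STAR 2.6.1d and featureCounts 1.6.4, on GRCm38.p6 with GENCODE annotation, and deposited 3 tables, 1 per pair of groups. The signal values are normalized counts, for which the authors scaled read counts with the size factors of DESeq2. The gene length, a score in bases, was deposited by the authors beside them. The deposited log2 fold changes, p-values and test statistics are the authors' own and were not used. Whole reads were recovered (within 0.05 reads, at least 99.98% of values) and gave CPM and, with the deposited gene length, RPKM.

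Comparisons used limma 3.58.1 (R 4.3.3) with a trend on log2(normalized count + 1), for genes with a mean of at least 10, with Benjamini-Hochberg adjustment over all genes tested. A gene passed at an adjusted p under 0.05 and at least 2-fold change, and a fold change is on the log2(value + 1) scale. The script was tested on simulated data. edgeR 4.0.16 and DESeq2 1.42.0 on recovered reads were alternatives, with pseudocounts of 0.1 and 5, no filter or a mean of 50, quantile normalization, 1 fit of all 9 libraries and leaving out each library. Named were the 7 genes, list genes that passed, list genes with the 2 highest or lowest values, and the 5 genes nearest to Cd74 and Ciita. Marker genes and list genes with a notable value were also named after their values were seen. Genes and lists were chosen with earlier results of these data known. Figures used matplotlib 3.10.9. Results for a few genes of the lists are not reported here.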

Additional observations from a re-analysis of the deposited data

How the results depend on the processing

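No paired analysis was possible because the labels link a column of the tables to its group and not to a clone or mouse. Of 281 values of the 7 genes under alternatives, 270 kept their direction and 5 passed the test where the main value did not. With 0 calls in the main test of de novo expanded against pre-malignant cells (1597 genes at an unadjusted p under 0.05 in limma, and 0 calls in edgeR), 5 genes passed with no filter on low values, 64 in DESeq2 and 5 with 1 fit of all 9 libraries, and 0 to 214 when a library was left out. DESeq2 called 1 of the 7 there, H2-Eb1, and leaving out a library called none (0). In stably expanded against pre-malignant cells, 9 genes passed with 1 fit of all 9 libraries and 206 to 452 when a library was left out, against 384. Of the 7, Cd74 passed (1 gene) with no filter and in DESeq2, and 0 to 1 passed when a library was left out. Between the leukemic groups, 2 genes passed with no filter, 32 in DESeq2 and 2 with 1 fit of all 9 libraries, and 0 to 508 when a library was left out, against 1, which was Gpx3. Of the 7, 0 to 1 passed there, H2-Ab1 without de novo expanded library 3. Of the 281 values, 11 changed sign. For H2-DMa in de novo expanded over pre-malignant cells the log2 fold change of 0.0012 became -0.028 with quantile normalization, -0.0055 in DESeq2 and -0.018 with 1 fit of all 9 libraries, and -0.10 to 0.16 when a library was left out. When a library was left out, that of H2-DMb1 ran from -0.11 to 0.16, that of Cd74 between the leukemic groups from -0.33 to 0.61 and that of Ciita in stably expanded over pre-malignant cells from -1.01 to 0.19. The cause was not tested. With 2 to 60 reads per library for Ciita and 4 to 61 for H2-Eb1, both genes are limited by depth. The 3 libraries per group, all pre-malignant ones from 1 mouse, limit every comparison.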
